A study of Rattus norvegicus with 4 samples.

Results

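The genes described here are 10 genes of iron handling: the hormone gene Hamp, the iron reductase gene Steap3, the transferrin receptor genes Tfrc and Tfr2, the iron exporter gene Slc40a1, the ferritin genes Fth1 and Ftl1, the transferrin gene Tf, the ferroxidase gene Cp and Hfe. They were chosen by symbol in the probe annotation of the array and are 10 of 8985 named genes with a kept probe. Together they had 13 probes: 8 genes had 1 probe, Slc40a1 had 2 and Hfe had 3. All 13 probes passed the filter on dim spots, and Steap3 passed it only through the untreated rats.

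The livers came from male Otsuka Long-Evans Tokushima Fatty (OLETF) rats, a strain known to lack the cholecystokinin A receptor and to become obese and diabetic with age. One group, the thiamine rats, drank water that held 0.2% thiamine (vitamin B1), which is 2 g in each L. This began at 4 weeks of age and lasted 51 weeks, and the untreated group drank water with 0% thiamine. Both groups ate standard chow, were fasted for 16 h and were sampled at 55 weeks of age. Each group held 8 rats, caged 2 together, and the livers of 2 rats per group were measured, each rat on an array of its own with no pooling. These are whole pieces of liver, so that fewer cells of a type and less RNA per cell cannot be told apart.

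Hepcidin, the product of Hamp, is a peptide hormone that hepatocytes release. It binds the exporter ferroportin (Slc40a1) on gut cells and macrophages and has it degraded, which lowers the iron that reaches the plasma. Hepatocytes set their Hamp level by plasma iron, read through transferrin, Tfr2, Hfe and signalling by bone morphogenetic proteins (BMPs), and by inflammation, read through interleukin 6 and STAT3. Iron enters cells on transferrin through its receptors, is reduced in endosomes by Steap3, and is stored in ferritin, whose heavy chain (Fth1) oxidises it. The transcripts of Tfrc and of both ferritins are also known to be controlled by iron regulatory proteins, which act on RNA stability and on translation.

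Both inputs to Hamp are known to act at short sites in its promoter, so that sequence is shown here. The stretch is the 250 bases before the RefSeq start of the rat gene in GRCr8, chr1:95300272-95300521, minus strand, printed 5′ to 3′. The capitals mark the 6 letters GGCGCC, the form of the known BMP-responsive element, and a match to TTCNNNGAA, the form of a STAT site. Both motifs read the same on either strand.
Hamp: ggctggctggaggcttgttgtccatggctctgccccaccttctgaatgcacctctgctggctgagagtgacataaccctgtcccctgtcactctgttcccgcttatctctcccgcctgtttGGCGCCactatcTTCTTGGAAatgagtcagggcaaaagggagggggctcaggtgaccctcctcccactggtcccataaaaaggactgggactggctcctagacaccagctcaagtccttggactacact
The GGCGCC began 129 bases before the start and TTCTTGGAA began 117 bases before it, and the matches did not overlap. Of 33469 rat promoters in the RefSeq table, 8.69% held GGCGCC in the same 250 bases, 7.67% held TTCNNNGAA and 0.379% held both. Promoters of 7 of the 10 genes were in the table: those of Hamp, Steap3, Tfrc, Tfr2, Slc40a1, Tf and Cp. Besides Hamp, Tfrc held GGCGCC, and none of the other 6 held TTCNNNGAA.

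Hamp stood higher in the livers of the thiamine rats. Its background-subtracted intensities were 5205 and 4026 in thiamine rats 1 and 2 and 2611 and 3008 in untreated rats 1 and 2. After normalization the levels were 12.22 and 11.94 (log2) with thiamine and 11.48 and 11.63 without. Both thiamine rats lay above both untreated rats, with a gap of 0.31 between the nearest rats of the groups, against ranges of 0.28 and 0.15 within the thiamine and untreated groups. The group means were 12.08 ± 0.20 (SD, n = 2) and 11.56 ± 0.11 (SD, n = 2), a difference of 0.52 ± 0.19 (log2, moderated SE), or 1.44-fold, with a 95% confidence interval from 0.11 to 0.94. The difference did not pass over all 18664 kept probes (limma, Benjamini-Hochberg adjusted p = 0.57, unadjusted p = 0.018). Of all kept probes, 2.49% were higher by as much or more. Leaving out 1 array at a time gave values between 0.39, without thiamine rat 1, and 0.66, without thiamine rat 2.

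Steap3 was the member furthest apart, in the other direction. This endosomal reductase turns ferric iron released from transferrin into the ferrous form that can cross the membrane. Its background-subtracted intensities were 47 and 44 in thiamine rats 1 and 2, both near background and the first also flagged as contaminated, and 152 and 546 in untreated rats 1 and 2, both above background. The normalized levels were 6.75 and 6.68 with thiamine and 7.81 and 9.34 without (log2). The groups did not overlap, and the untreated rats differed from each other by 1.52, more than the gap of 1.07 between the groups. The filter kept Steap3 only through the untreated rats, so this lack of overlap is no support for a difference. Since no thiamine array measured Steap3 above background, its difference has only a bound, 2.82-fold higher in the untreated livers. The bound sets the mean of the untreated rats against the lowest signal above background on each thiamine array. The limit at the Steap3 spot itself could lie higher and was not measured, so the bound is no guaranteed minimum.

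The size of the Steap3 bound rested on which untreated rat was kept. It was 1.66-fold without untreated rat 2 and 4.79-fold without untreated rat 1. The measured means were 6.71 ± 0.05 (SD, n = 2) with thiamine and 8.58 ± 1.08 (SD, n = 2) without, and the fit over them did not pass (limma, adjusted p = 0.22). A fit without untreated rat 1 gave an adjusted p of 0.0019 (limma), but the spread of the gene in it is that of the near background thiamine values, so it supports no difference. Steap3 had 1 probe, so no other probe of the gene could be set beside it.

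**Figure D1:**
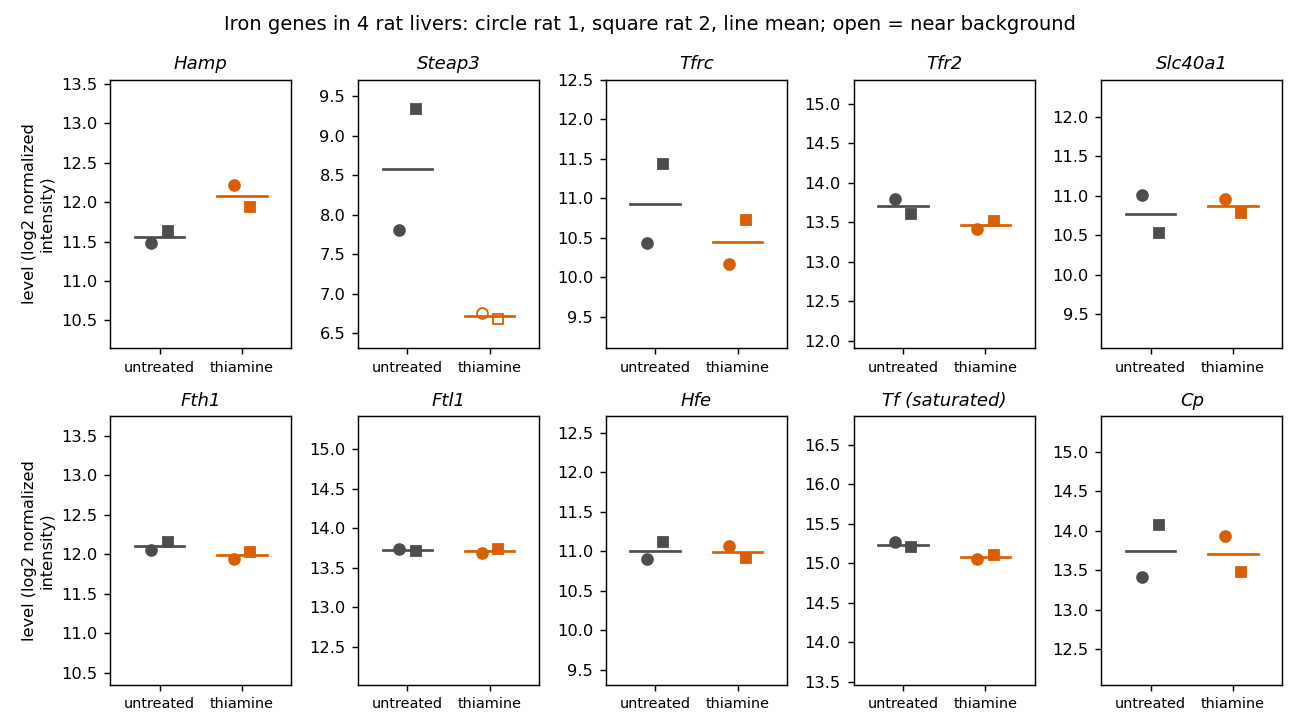
Level (log2 normalized intensity) of each of the 10 iron genes in each rat, by the brightest probe; circles are rat 1 and squares rat 2 of a group, lines are group means, open symbols are near background, and every panel spans the same log2 range. Hamp is higher in both thiamine rats, Steap3 is near background in both thiamine rats, and the rats of the groups overlap or nearly touch for most other genes.

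Counted by the brightest probe of each gene, 9 of the 10 genes had a difference, since Tf was saturated on all 4 arrays. None of the 9 passed the test, where 0.0% of all kept probes passed (limma, adjusted p under 0.05). At an unadjusted p under 0.05 limma called 2 of the 9, Hamp and Steap3, against 6.75% of all kept probes (1260 of 18664). Hamp was among the 3.81% of probes called higher at that level and Steap3 among the 2.94% called lower. The place of Steap3 there rests on thiamine values near background. The members were named with these results known, so the 2 genes are no sign of a shift in the group. The groups did not overlap for 4 of the 9 (Hamp, Steap3, Tfr2 and Fth1), and for 36.2% of all kept probes. Steap3 was kept only through the untreated rats, where it was higher, so its lack of overlap and its direction are no support. In direction, thiamine was above untreated for 2 of the 9 and below for 7, and their median was -0.05. Over all kept probes 50.9% were higher and the median was 0.01. With 2 rats against 2, an exact permutation test of a single gene cannot give a two-sided p below 0.333.

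**Figure D2:**
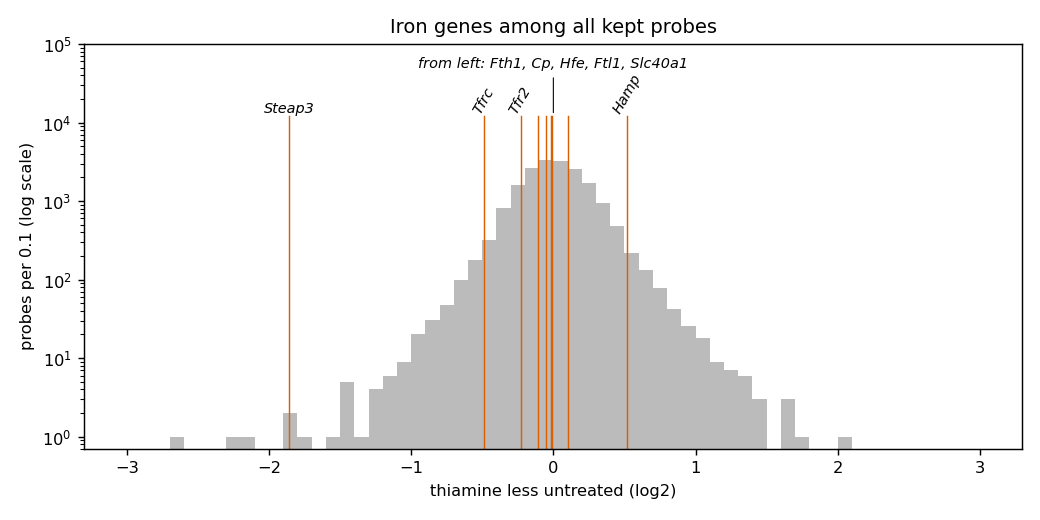
Number of kept probes (log scale) in steps of 0.1 of the difference thiamine less untreated (log2), with lines at the 9 iron genes that have one. Steap3 is drawn at -1.86, its measured value, which rests on thiamine levels near background and is no exact difference. Hamp at 0.52 and Tfrc at -0.49 lie on the shoulders, and the other 6 lie within 0.25 of 0.

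Both transferrin receptors had lower means with thiamine, and neither passed the test. Tfrc, the receptor through which most cells take up transferrin, was at 10.17 and 10.72 (log2) in thiamine rats 1 and 2 and at 10.43 and 11.43 in untreated rats 1 and 2. The groups overlapped, and untreated rat 2 was the high value: its intensity was 2566, where the other 3 rats had between 1162 and 1707. The difference was -0.49 ± 0.30 (limma, adjusted p = 0.84), or -0.99 and 0.01 when untreated rats 1 and 2 were left out in turn. Tfrc is also abundant in red cell precursors. Of the 11 listed red cell and erythroid markers 5 were measured. With thiamine 3 were above and 2 below the untreated level (median 0.07), their summed normalized intensity was 2016 and 1952 with thiamine and 2038 and 1741 without, and Hba-a2 was near background. Their part in the Tfrc values was not tested.

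Tfr2, the receptor that hepatocytes use as a sensor of iron-loaded transferrin, was at 13.42 and 13.52 with thiamine and at 13.79 and 13.61 without. The groups did not overlap, but only 0.08 lay between their nearest rats. The difference was -0.23 ± 0.18 (limma, adjusted p = 0.88), with a 95% confidence interval from -0.63 to 0.17.

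Hfe, a relative of the major histocompatibility molecules that binds transferrin receptors and takes part in iron sensing, was level between the groups by all of its probes. By the brightest probe it was at 11.07 and 10.92 in the thiamine rats and at 10.90 and 11.12 in the untreated rats. The 3 probes differed by -0.02 ± 0.19, 0.11 ± 0.20 and 0.03 ± 0.18, and on each the groups overlapped. The dimmest of them was flagged as contaminated on the array of untreated rat 2. The 95% confidence interval of the brightest probe ran from -0.43 to 0.39, so a difference within it in either direction remains possible.

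Slc40a1 encodes ferroportin, the exporter that hepcidin removes from the cell surface and, in the liver, a gene of Kupffer cells as well as of hepatocytes. Its brighter probe was at 10.96 and 10.78 with thiamine and at 11.01 and 10.53 without, and its other probe at 10.83 and 10.78 against 10.72 and 10.28. Untreated rat 2 was the lowest on both probes. The groups overlapped on the brighter probe and not on the other, where the gap was 0.06. The differences were 0.10 ± 0.21 and 0.31 ± 0.20 (limma, adjusted p = 0.96 and 0.85), and without untreated rat 2 they were -0.14 and 0.09.

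Markers of Kupffer cells stood higher beside Slc40a1. Of 13 listed markers 9 were measured and all 9 were higher with thiamine, with a median of 0.62, or 0.33 and 0.95 when thiamine rats 1 and 2 were left out in turn. Without thiamine rat 1 or without untreated rat 2, 8 of the 9 were higher. None of the 9 passed over all probes (limma), and 6 had an unadjusted p under 0.05, against 6.75% of all kept probes. Their summed normalized intensity was 29062 and 20203 in thiamine rats 1 and 2 and 19734 and 12800 in untreated rats 1 and 2. Untreated rat 2 had the lowest sum and the lowest Slc40a1. Untreated rat 1 had the highest Slc40a1 on the brighter probe (11.01) and a sum below both thiamine rats. Marco, Vsig4, Cd5l and Timd4 were not analysed here, and the spot of Cd163 was flagged as contaminated in rat 1 of each group. The part of these cells in the Slc40a1 values was not tested.

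The genes of iron storage were close to level in all 4 rats. Fth1, the ferritin heavy chain, was at 11.94 and 12.03 with thiamine and at 12.05 and 12.15 without, a difference of -0.11 ± 0.18. The gap between the groups was 0.02, the smallest gap among the 4 genes without overlap. Ftl1, the ferritin light chain, was at 13.69 and 13.74 with thiamine and at 13.74 and 13.71 without, a difference of -0.01 ± 0.18. The 95% confidence intervals ran from -0.51 to 0.28 for Fth1 and from -0.40 to 0.38 for Ftl1. Ferritin synthesis is known to be set largely at translation, which these transcript levels do not show.

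The plasma proteins of iron transport could be compared only in part. Tf, the plasma carrier that hepatocytes secrete, gave intensities of 34584 and 35378 with thiamine and 38486 and 37180 without, and all 4 spots were flagged as saturated, so no difference is given. Cp, or ceruloplasmin, the copper ferroxidase that helps load iron onto transferrin, was at 13.93 and 13.48 with thiamine and at 13.42 and 14.08 without. The rats of each group lay further apart than the group means did, with ranges of 0.45 and 0.66. The difference of Cp was -0.05 ± 0.25 (limma, adjusted p = 0.98), and it ran from -0.38 without untreated rat 1 to 0.28 without untreated rat 2.

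**Figure D3:**
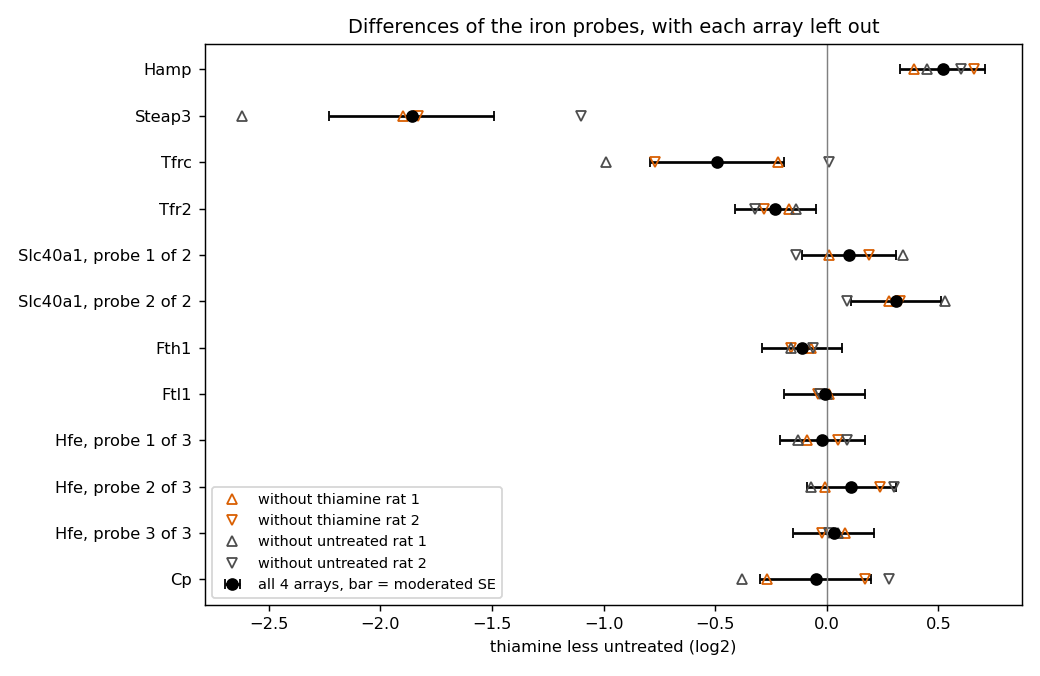
Difference thiamine less untreated (log2) of the 12 probes that were not saturated, as black points with the moderated SE, and the same difference with each of the 4 arrays left out as open triangles. Hamp stays between 0.39 and 0.66. Steap3 stays below 0 but its size follows the untreated rat that is kept. Tfrc runs from -0.99 to 0.01. Cp, Ftl1, Hfe and the brighter probe of Slc40a1 move to either side of 0. The point of Steap3 rests on near background values in the thiamine rats.

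The genes that control hepcidin were split between directions. Of 25 listed genes 20 had a kept probe. Of these 10 stood higher with thiamine and 10 lower, their median was 0.01, and none passed over all probes (limma). At an unadjusted p under 0.05 limma called 1 higher and 1 lower, against 3.81% and 2.94% of all kept probes. Bmp2, a BMP that liver endothelial cells supply to hepatocytes, was at 9.01 and 8.75 in thiamine rats 1 and 2 and at 8.48 and 8.22 in untreated rats 1 and 2. The groups did not overlap and the difference was 0.53 ± 0.19. Stat3, which carries the interleukin 6 signal, was at 12.51 and 12.40 with thiamine and at 13.15 and 12.76 without, again with no overlap, and the difference was -0.50 ± 0.20, or -0.31 without untreated rat 1. Its 2 other probes were lower too, at -0.60 and -0.28.

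Other genes of the same control were chosen for mention after their values were seen. Hjv, the BMP co-receptor hemojuvelin, was at -0.43 ± 0.20, or -0.64 and -0.23 with thiamine rats 1 and 2 left out in turn. Bmp6 was at 0.15 ± 0.19, or 0.28 and 0.02 in the same order. Of the genes that BMP signalling is known to induce, Id1 was at 0.32 ± 0.18 and kept between 0.26 and 0.39 when any 1 array was left out. Smad7 was at 0.06 ± 0.20, and left-out arrays gave -0.12 without untreated rat 1 and 0.24 without untreated rat 2. That probe of Smad7 was flagged as contaminated in thiamine rat 1, and its other probe was at -0.18. Atoh8 was at -0.23 ± 0.20, or -0.44 and -0.01 without the same rats. Il6 itself was at 0.08 ± 0.20, with -0.09 when thiamine rat 2 was left out and 0.26 when thiamine rat 1 was. Socs3 and Smad9 were near background, and Tmprss6, Erfe and Smad6 were not analysed here.

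**Figure D4:**
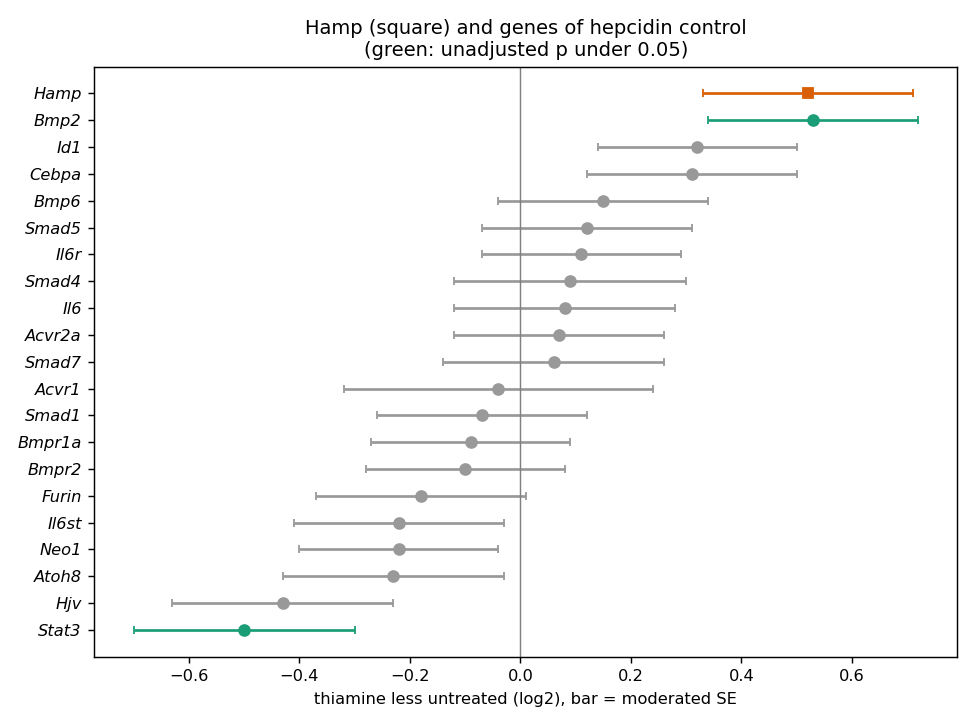
Difference thiamine less untreated (log2) with its moderated SE for Hamp (square) and the 20 measured genes of hepcidin control, in order of size. Bmp2 and Stat3, in green, are at opposite ends, and the other genes spread evenly around 0.

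Beside Bmp2 and Stat3, markers of the liver endothelium measured higher with thiamine and most genes of the acute phase lower. All 7 measured endothelial markers, of 10 listed and with Bmp2 among them, were higher with thiamine, with a median of 0.44. This held for 5 of 7 without thiamine rat 1 or without untreated rat 2 and for 6 of 7 without untreated rat 1. With all 4 arrays none of the 7 passed over all probes (limma), and 3 had an unadjusted p under 0.05, against 6.75% of all kept probes. The groups did not overlap for 4 of the 7, against 36.2% of all kept probes. The summed normalized intensity of the 7 was 6594 and 6055 with thiamine and 4942 and 4234 without. Clec4g, Cdh5 and Fcgr2b were not analysed here. Of 16 measured acute phase genes, 4 were saturated, and among the other 12 the difference was above 0 for 2 and below 0 for 10 (median -0.22). A2m, 1 of these 10, was kept only through the untreated rats. With the filter set to above background in every rat, which drops it, 2 were higher and 9 lower (median -0.2). None of the 12 passed over all probes (limma). At an unadjusted p under 0.05 limma called 3, A2m among them and all lower, against 2.94% of all kept probes. The groups did not overlap for 4 of the 12, against 36.2% of all kept probes. Leaving out untreated rat 2 gave 5 higher and 7 lower with a median of -0.08. Leaving out untreated rat 1 gave 2 higher and 10 lower with a median of -0.35.

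The 2 acute phase genes with the smallest unadjusted p (limma) were A2m and Lbp, and they are named for that. A2m, an acute phase protein of the rat, was at 7.42 and 7.33 with thiamine and at 9.03 and 11.11 without. In thiamine rat 1 its spot was near background and flagged as contaminated. The filter kept A2m only through the untreated rats, where it was higher, so its lack of overlap and its direction are no support for a difference. Untreated rat 2 was the higher of the untreated rats for A2m, as it was for Steap3. Lbp, the lipopolysaccharide-binding protein, was at 8.22 and 8.16 with thiamine and at 8.78 and 8.98 without, a difference of -0.69 ± 0.18. Hamp, an acute phase gene itself, stood the other way from the median of this list. The part of these cells and genes in the Hamp values was not tested. The 8 listed hepatocyte markers were above background on all 4 arrays and 5 of them were saturated. The other 3 were at -0.12 ± 0.18 (Apoa1), -0.12 ± 0.19 (Apoh) and 0.51 ± 0.36 (Tat), a median of -0.12 that ran from -0.21 without thiamine rat 2 to 0.04 without untreated rat 1.

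**Figure D5:**
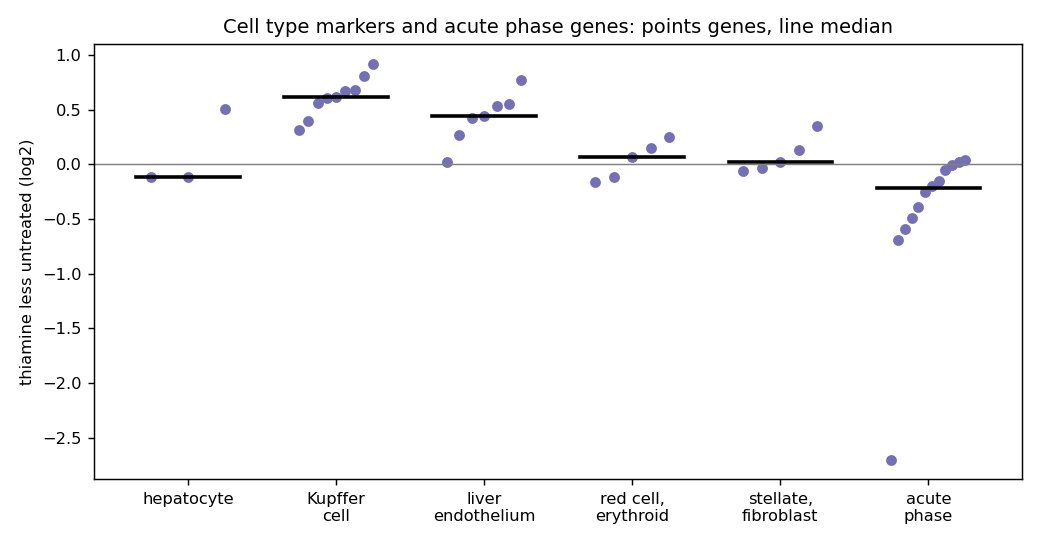
Difference thiamine less untreated (log2) of the genes of 5 marker lists and of the acute phase list, each point a gene and each line the median of the list, without genes saturated on all 4 arrays. The medians of Kupffer cells and endothelium are 0.62 and 0.44, and that of the acute phase list is -0.22 with A2m far below the rest. A2m passed the filter only through the untreated rats, where it was higher.

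Genes that take up and reduce iron beside Steap3 were close to level. Of 10 listed genes 7 had a kept probe, 4 above and 3 below the untreated level. The median was 0.12, or 0.04 without thiamine rat 1, and none had an unadjusted p under 0.05 (limma). Slc22a17, a receptor for lipocalin, was at 0.33 ± 0.18 and Cybrd1, a ferric reductase, at 0.34 ± 0.21. Cybrd1 was at 0.16 without either rat 1 and at 0.52 and 0.53 without thiamine and untreated rat 2. Of the relatives of Steap3, Steap1 differed by 0.22 ± 0.18 and Steap4 by 0.12 ± 0.19 (-0.03 without untreated rat 2), and both were above background in all 4 rats, while Steap2 was near background. Whether Steap3 differs from its relatives was not tested. Slc11a2 (DMT1) and Slc39a14 (ZIP14), importers of the ferrous iron that Steap3 makes, were at -0.23 ± 0.19 and -0.03 ± 0.19 by the brightest probe. Their other probes were at -0.37 and 0.07. Without untreated rat 1 the brightest probes were at -0.09 and -0.22, and without untreated rat 2 at -0.38 and 0.16.

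Genes of haem scavenging and of iron sensing showed no common direction. Of 12 listed genes for haem and haemoglobin 10 were measured. Hp and Hpx, which bind haemoglobin and haem in plasma, were saturated, and the other 8 split into 4 higher and 4 lower (median -0.01). The haemoglobin receptor Cd163, also a Kupffer cell marker, was at 0.61 ± 0.24, or 0.26 and 0.96 when thiamine rats 1 and 2 were left out in turn. Its spot was flagged as contaminated in rat 1 of each group. Slc46a1 was at 0.29 ± 0.19, or 0.14 and 0.45 with the same rats left out in turn. Hmox1, which breaks haem down and frees its iron, was at 10.40 and 9.67 with thiamine and 10.31 and 9.44 without, further apart within each group than between them. Of 11 listed genes of cell iron sensing and storage 6 had a kept probe, 4 of them above and 2 below the untreated level (median 0.03). The iron regulatory proteins Aco1 and Ireb2 were at -0.06 ± 0.19 and 0.26 ± 0.23, and the hypoxia factor Epas1 was at 0.26 ± 0.19. With untreated rats 1 and 2 left out in turn, Aco1 was at -0.15 and 0.03, Ireb2 at 0.60 and -0.08 and Epas1 at 0.41 and 0.10.

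The genes whose 4 levels, each centred on its own mean, lay nearest to those of Hamp were Limk2, Ppif and Tbpl1. Their Euclidean distances to Hamp were 0.028, 0.052 and 0.052 (log2) among 8984 other genes and over 4 arrays, few points on which to judge likeness. Limk2 was at 9.45 and 9.21 with thiamine and 8.72 and 8.89 without, the same order of the rats as for Hamp.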

How the data were processed

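Liver RNA of 4 rats was measured on 1-colour CodeLink arrays, 1 rat per array. Per the file headers, the authors' scanner reports come from the software CodeLink Expression Analysis, version 5.0.0.31312, and hold intensity values on a linear scale (spot mean, median local background and their difference) with a quality flag. The authors also deposited a table of normalized intensity values; its making is not given in the sources.

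Background was corrected with normexp at an offset of 50, control features were left out and log2 values of 33849 gene probes were quantile normalized. Between 18176 and 20071 probes per array were above background, and between 31 and 40 were saturated. Spots flagged as contaminated, 1.49% to 7.49% of an array, were kept. The 18664 probes above background on both arrays of 1 or both groups were kept, and each gene was read from its brightest kept probe. Names came from the platform annotation, updated by gene identifier through RefSeq (GRCr8). Of the probes, 16740 had 1 symbol, 367 were named by RefSeq accession, 165 had several symbols and 13 had conflicting ones and were left unnamed, and 16564 had none.

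The test was that of limma 3.58.1, run in R 4.3.3 (two-sided, adjusted by Benjamini-Hochberg across the kept probes, 2 residual degrees of freedom, 10.8 after moderation, median SE 0.19) and the fit was tested on simulated data. Every ± after a difference is the moderated SE, drawn towards the spread over all probes. Each array is a separate slide, so batch and rat cannot be told apart. The number of rats limits the precision. Genes were named by rule: every member, the 2 genes of each pathway list with the smallest unadjusted p and the 3 genes nearest to Hamp; marker lists are given by counts and median, 1 gene of the rule is not reported here, and every other gene named was chosen after its values were seen. The members and lists were chosen with earlier results of these data known. Alternatives covered background correction, an offset of 16, the filter, median scaling, the probe chosen, the deposited table, flagged spots, each array left out and a replicate block.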

Additional observations from a re-analysis of the deposited data

How the results depend on the processing

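Hamp kept its direction and did not pass under any of 13 alternatives, with differences from 0.39 to 0.66, and Tfr2 and Fth1 also kept theirs (-0.32 to -0.13 and -0.16 to -0.06). Steap3, near background in both thiamine rats, measured lower under all 12 alternatives that measured it, from -2.83 to -1.10, and its bound ran from 1.66-fold to 4.79-fold. Steap3 passed the main filter only through the untreated rats, so this shared direction is no sign of stability. The stricter filter (above background in every rat) leaves it out, and with flagged spots missing it had no bound. Leaving out 1 array gave -2.62 to -1.10 for Steap3, with 0 to 1 members called, 1 to 65 probes called and 696 to 2459 at an unadjusted p under 0.05. Background subtraction and the deposited table each called 1 probe, where the main setting called 0. Tfrc ran from -0.99 to 0.01 when 1 array was left out. The directions of the near level genes turned: leaving out 1 array gave -0.14 to 0.34 for Slc40a1, -0.04 to 0.01 for Ftl1, -0.13 to 0.09 for Hfe and -0.38 to 0.28 for Cp. With the deposited table Ftl1 was at 0.04 and Cp at 0.02. Hfe was at 0.00 with median scaling and at 0.04 with the mean of its probes. For these the cause was not tested, beyond fewer arrays in the fits that leave 1 out.

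The replicate numbers pair no rats in the labels. Deviations of same-numbered rats from their group means had a correlation of -0.074 over 18650 probes. With the replicate number as a block, limma called 126 probes, among them 1 member, Steap3 (-1.86, adjusted p = 3.3e-05, against thiamine values near background), with 1 degree of freedom per probe left before moderation.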

Other observations

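Genes that build haem and handle mitochondrial iron, a main use of liver iron, were apart in both directions. Of 17 listed genes 13 were measured, 8 higher and 5 lower with thiamine, with a median of 0.04 that left-out arrays moved from -0.12, without untreated rat 2, to 0.19, without thiamine rat 2. None passed over all probes (limma). At an unadjusted p under 0.05 limma called 3 higher and 1 lower, against 3.81% and 2.94% of all kept probes. Isca2, a factor of mitochondrial iron-sulphur assembly, was at 12.58 and 12.35 in thiamine rats 1 and 2 and at 12.07 and 11.64 in untreated rats 1 and 2, a difference of 0.61 ± 0.21, or 0.39 without untreated rat 2. Alas1, the rate-limiting enzyme of haem synthesis in liver, was at 9.27 and 9.60 against 8.27 and 9.14, a difference of 0.73 ± 0.27, or 0.30 and 1.17 when untreated rats 1 and 2 were left out in turn. The other 2, named after their values were seen, were Ppox at 0.61 ± 0.23, whose spot was flagged as contaminated in rat 1 of each group, and Alad, the second enzyme of the path, at -0.58 ± 0.21. When untreated rats 1 and 2 were left out in turn, Ppox was at 0.94 and 0.27. Alad was at -0.31 without thiamine rat 2 and at -0.86 without thiamine rat 1.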
